A study of Mus musculus with 10 samples.

Results

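Gene expression in repeat mouse T helper 2 (Th2) cultures was compared between experiment 1 and experiment 2, which is the only replication that these cultures had. The 4 libraries titled Th2, with and without trichostatin A (TSA), were taken from a series of 10 RNA-seq libraries, and the sample titles placed 2 of them in each experiment. Splenic CD4 T cells of C57BL/6 mice were kept for 5 days with interleukin 2 at 15 ng/ml and interleukin 4 at 10 ng/ml in all 4 cultures. Each experiment held 1 culture that received 10 nM TSA on day 2 for a further 3 days, and 1 untreated culture. TSA inhibits histone deacetylases, the enzymes that remove acetyl groups from histones. Total RNA was extracted with TRIzol and polyadenylated transcripts were sequenced after a TruSeq version 2 preparation. The labels do not say whether the experiments used separate animals, days or RNA preparations, so experiment number, donor, day and handling cannot be told apart. The p-values between experiments measure only how far the difference in untreated cultures and that in TSA cultures disagreed. They do not measure the spread of repeat cultures of a condition.

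Th2 cells are the helper T cells that secrete interleukins 4, 5 and 13 under the transcription factor Gata3, and they arise when naive CD4 T cells are activated in the presence of interleukin 4. Activated T cells run glycolysis at a high rate. When oxygen is short, prolyl hydroxylases stop marking the factor Hif1a for destruction, and it binds a short DNA core, ACGTG, to raise genes of glucose uptake, glycolysis and mitochondrial turnover. Metallothioneins are small cysteine-rich proteins that bind zinc, and their genes are switched on by the zinc sensor Mtf1. Granzymes are serine proteases of lymphocyte granules, best known from cytotoxic T and natural killer cells.

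The values are FPKM, fragments scaled by transcript length and library total, on which levels of different genes can be compared per length. A gene was kept at 5 FPKM or more in at least 2 of the 4 libraries, which left 8037 of 19025 genes. Of these, 6985 reached 5 FPKM in all 4 libraries, 51 passed only through both libraries of experiment 1 and 38 only through both of experiment 2. The steps between low FPKM values put the depth at roughly 13.2 M (TSA) and 17.7 M (untreated) fragments in experiment 1, against roughly 23.7 M (TSA) and 23.0 M (untreated) in experiment 2. The cultures were T cells in both experiments. Cd3e, a chain of the T cell receptor complex, had 111 (TSA) and 133 (untreated) FPKM in experiment 1, against 81.1 (TSA) and 113 (untreated) in experiment 2. Cd4 had 184 (TSA) and 135 (untreated) FPKM in experiment 1, against 162 (TSA) and 131 (untreated) in experiment 2. Gata3 had 49.0 (TSA) and 80.3 (untreated) FPKM in experiment 1, against 49.2 (TSA) and 98.1 (untreated) in experiment 2. Mast cell and basophil markers summed to 0.56 (TSA) and 2.68 (untreated) FPKM in experiment 1, against 0.71 (TSA) and 3.00 (untreated) in experiment 2. An exact 0 in these files can be a failed estimate, since Myc and Rpl26, which dividing cells use, are listed at 0 in all 4 libraries. Transcripts of the Y-linked genes Ddx3y, Eif2s3y and Uty were at 0.02 FPKM or less in all 4.

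Differences are given as experiment 1 minus experiment 2 in log2(FPKM + 1), a scale that understates the change of low genes. A gene was called at an adjusted p below 0.05 in limma with the treatment as a block. By this rule 678 genes were higher (8.44% of those tested) and 737 lower (9.17%) in experiment 1. Most called differences were small: their median size was 0.43, a 1.35-fold difference, 989 of them were under 0.5 and 28 reached 1. The treatment block leaves 1 residual degree of freedom for each gene, which is the disagreement between the untreated and the TSA difference. The calls rest on that disagreement, moderated by a spread shared between genes. Without the block, or without any filter on low values, no gene was called. An unadjusted p below 0.05 was then reached by 70 higher and 113 lower genes without the block, and by 1486 higher and 1596 lower genes without the filter. Leaving out any 1 of the libraries, which also removes the block, left 0 higher calls and at most 1 lower call.

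Genes that differed in the untreated pair of libraries also tended to differ in the TSA pair, which shares no library with it. Across the 8037 genes the 2 pair differences correlated with a Pearson r of 0.65 and a Spearman rho of 0.69, as a description over genes that are not independent, and 6146 genes (76.5%) had the same sign in both. The standard deviation (SD) of the difference over genes was 0.307 in the TSA pair and 0.30 in the untreated pair, against 0.0516 to 0.0547 between the 2 libraries of ES, B and CD4 T cells for the same genes. Those other libraries were close to duplicates, and the genes were filtered on the Th2 libraries. Their SDs therefore do not show how far repeat cultures of other cells differ. Experiment took 15.6% of the sum of squares over these genes, TSA 81.1% and the remainder 3.31%. For 2479 genes (30.8%) the experiment difference was larger than the TSA difference. In bulk RNA, fewer cells of a type and less RNA per cell cannot be told apart.

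**Figure D1:**
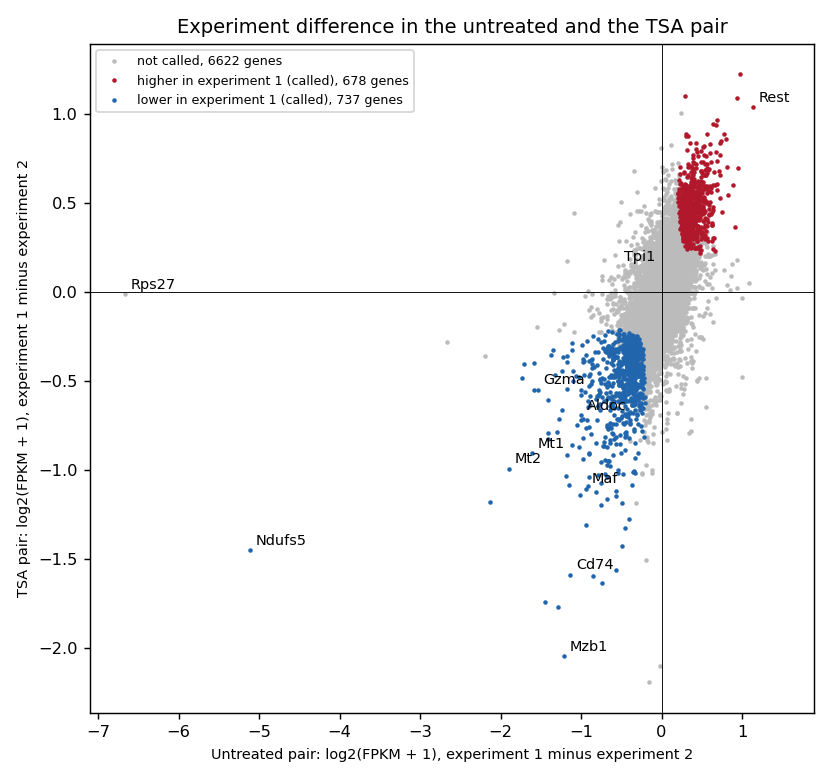
Difference between experiments of each of the 8037 genes, in log2(FPKM + 1) as experiment 1 minus experiment 2, in the untreated pair (horizontal) and the TSA pair (vertical). Each point is 1 gene, red where called higher (678) and blue where called lower (737) in experiment 1. Points lie along the diagonal (Pearson r of 0.65), and Rps27 and Ndufs5 stand apart through a low value in the untreated library of experiment 1.

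Gzma, Aldoc, Aldoa and Tpi1 were singled out with earlier results of these data known, so a call among them, made over all genes, is no independent support. Gzma, which encodes granzyme A, had 714 (TSA) and 339 (untreated) FPKM in experiment 1, against 1044 (TSA) and 985 (untreated) in experiment 2. Both libraries of experiment 1 were below both of experiment 2, and the gap was wider in the untreated pair. The log2 difference was -1.04 with a standard error (SE) of 0.21 (adjusted p = 0.0290, n = 2 libraries per experiment). With a robust prior the call was lost (adjusted p = 0.0612). Aldoc, the gene of a fructose-bisphosphate aldolase, had 19.8 (TSA) and 34.1 (untreated) FPKM in experiment 1, against 32.5 (TSA) and 68.9 (untreated) in experiment 2. Each library of experiment 1 was lower than its partner, although the experiments overlapped, and the log2 difference was -0.84 (SE 0.098, adjusted p = 0.0153). Aldoa, the main aldolase of these cells by FPKM, had 709 (TSA) and 898 (untreated) FPKM in experiment 1, against 857 (TSA) and 1305 (untreated) in experiment 2. Its log2 difference was -0.41 (SE 0.090, adjusted p = 0.0344), a call that was lost with quantile normalization, with an untrended prior and with the trend on transcript length removed. Tpi1, triosephosphate isomerase, had 217 (TSA) and 488 (untreated) FPKM in experiment 1, against 196 (TSA) and 709 (untreated) in experiment 2. The library of experiment 1 was the lower one in the untreated pair and the higher one in the TSA pair, and the gene was not called (log2 difference -0.20, adjusted p = 0.39).

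**Figure D2:**
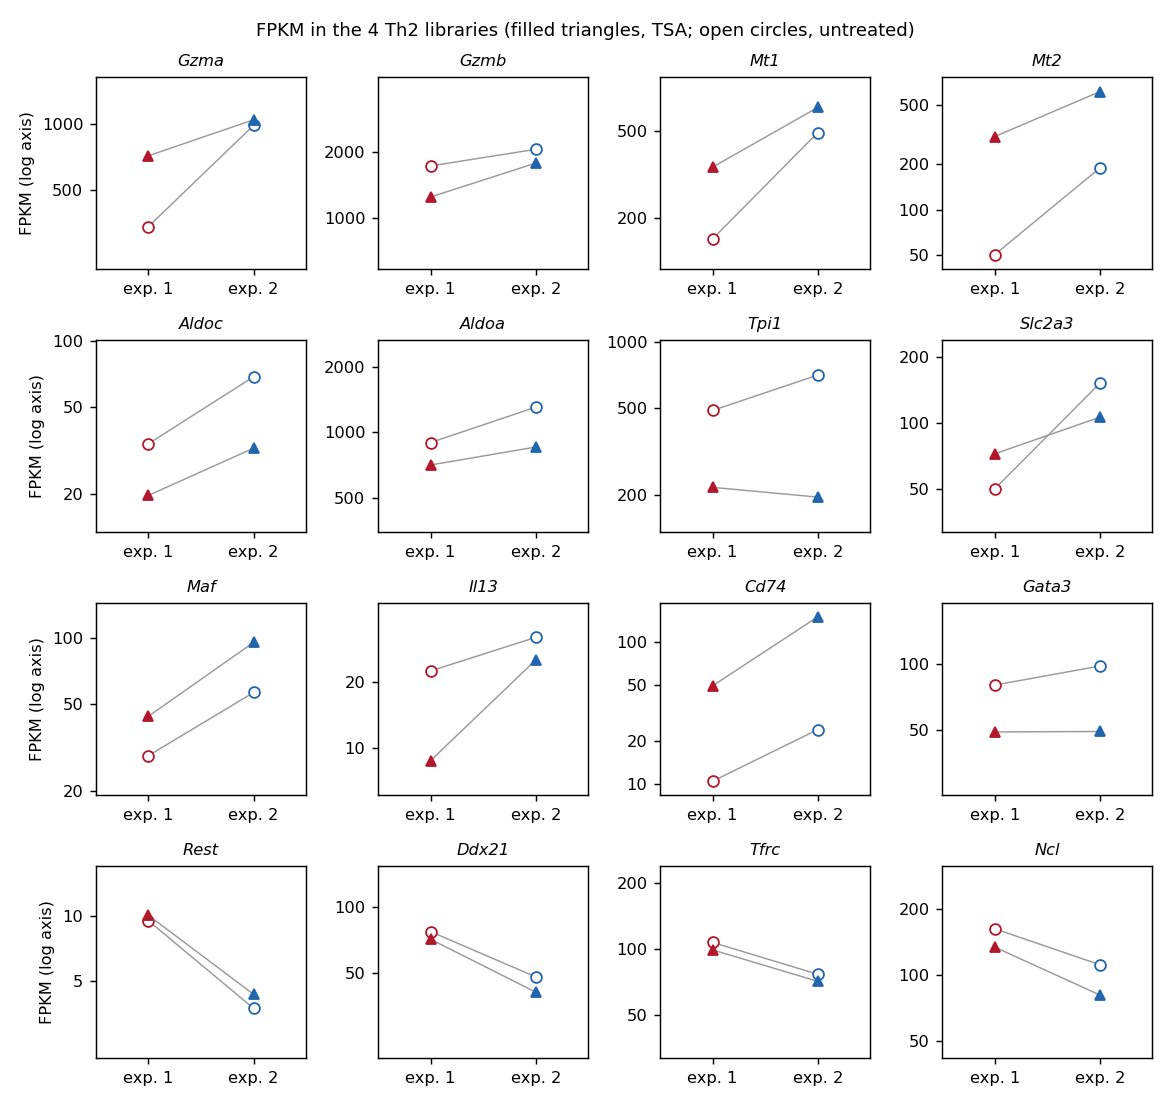
FPKM of 16 genes in the 4 libraries, on log axes, with experiment 1 left (red) and experiment 2 right (blue). Filled triangles are TSA-treated cultures, open circles untreated ones, and a line joins the 2 libraries of a treatment. Gzma, Mt1, Mt2, Aldoc, Maf and Cd74 slope upward from experiment 1 to experiment 2 in both treatments, Rest, Ddx21, Tfrc and Ncl slope downward, and Tpi1 slopes opposite ways.

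Genes of the hypoxia response stood lower in experiment 1. Of 31 listed genes 27 were tested, 17 were called lower and 0 higher, against 9.17% and 8.44% of all genes. The median log2 difference of the tested members was -0.56, against 0.02 over all genes. In both pairs 24 of the 27 were lower, as were 2846 of all 8037 genes. The list median was -0.34 in the TSA pair and -0.83 in the untreated pair, a gap between pairs that the design gives no spread to test.

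Among targets that mark mitochondria for removal, Bnip3 had 77.8 (TSA) and 108 (untreated) FPKM in experiment 1, against 113 (TSA) and 201 (untreated) in experiment 2 (log2 difference -0.71, adjusted p = 0.0183). Both libraries of experiment 1 were below both of experiment 2. Ankrd37, an ankyrin repeat gene induced by hypoxia, had 6.98 (TSA) and 6.14 (untreated) FPKM in experiment 1, against 12.1 (TSA) and 16.2 (untreated) in experiment 2. P4ha2, a prolyl hydroxylase of collagen, had 9.99 (TSA) and 11.5 (untreated) FPKM in experiment 1, against 18.4 (TSA) and 23.6 (untreated) in experiment 2. Neither gene overlapped between experiments, and their log2 differences were -0.99 (SE 0.14) and -0.90 (SE 0.089). Ddit4, an inhibitor of the growth kinase mTORC1, had 82.4 (TSA) and 81.1 (untreated) FPKM in experiment 1, against 136 (TSA) and 160.4 (untreated) in experiment 2. Ndrg1, a stress-induced gene, had 42.8 (TSA) and 26.4 (untreated) FPKM in experiment 1, against 58.6 (TSA) and 63.5 (untreated) in experiment 2. These were also separate, with log2 differences of -0.84 each (SE 0.089 for Ddit4 and 0.17 for Ndrg1).

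The oxygen sensors that themselves respond to hypoxia were lower too. Egln3 had 85.6 (TSA) and 82.8 (untreated) FPKM in experiment 1, against 111 (TSA) and 194 (untreated) in experiment 2 (log2 difference -0.79, adjusted p = 0.0366), a call lost with an untrended or a robust prior. Egln1 differed by -0.59 (adjusted p = 0.0313). Vegfa, the vascular growth factor gene, had 5.86 (TSA) and 10.8 (untreated) FPKM in experiment 1, against 7.37 (TSA) and 24.6 (untreated) in experiment 2, and most of its log2 difference of -0.70 came from the untreated pair (-1.11, against -0.29 in the TSA pair). The call of Vegfa was lost with pseudocount 5, the lower filter, quantile normalization, either other prior and the length trend removed. The transcript of Hif1a itself, which is controlled mainly as a protein, was not called. It had 149.8 (TSA) and 193 (untreated) FPKM in experiment 1, against 150.9 (TSA) and 177 (untreated) in experiment 2 (log2 difference 0.06, SE 0.077).

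Of 23 tested glycolysis genes, 6 were called lower and 0 higher, against 9.17% and 8.44% of all genes. Their median log2 difference was -0.26 (-0.06 in the TSA pair and -0.43 in the untreated pair). With median-ratio scaling 11 were lower, and 9 with the trend on GC content removed. Quantile normalization or a robust prior gave 5 lower, and removal of the trend on transcript length 4. The called genes were the aldolases Aldoa and Aldoc, Gapdh, the glucose transporters Slc2a1 and Slc2a3 and the lactate exporter Slc16a3. Slc2a3 had 72.3 (TSA) and 49.97 (untreated) FPKM in experiment 1, against 106 (TSA) and 152 (untreated) in experiment 2, with no overlap (log2 difference -1.07, SE 0.22, adjusted p = 0.0292). Its call was lost with a robust prior, and that of Gapdh with the length trend removed. Slc16a3 had 50.1 (TSA) and 65.1 (untreated) FPKM in experiment 1, against 69.8 (TSA) and 138 (untreated) in experiment 2, again with no overlap (log2 difference -0.77). Ldha, Pkm, Pgk1 and Eno1, whose enzymes act later in the pathway, were not called. Ldha, which makes lactate, had 639 (TSA) and 1052 (untreated) FPKM in experiment 1, against 649 (TSA) and 1356 (untreated) in experiment 2 (log2 difference -0.19, adjusted p = 0.21). Pkm and Pgk1 had log2 differences of -0.20 and -0.11. Eno1 had the lowest log2 difference of the list at -1.28 without a call (adjusted p = 0.0598), and near-identical copies of this gene and of Gapdh and Aldoa make their FPKM uncertain. Hexokinase Hk2 had 38.8 (TSA) and 30.3 (untreated) FPKM in experiment 1, against 26.0 (TSA) and 29.0 (untreated) in experiment 2 (log2 difference 0.31, adjusted p = 0.12).

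**Figure D3:**
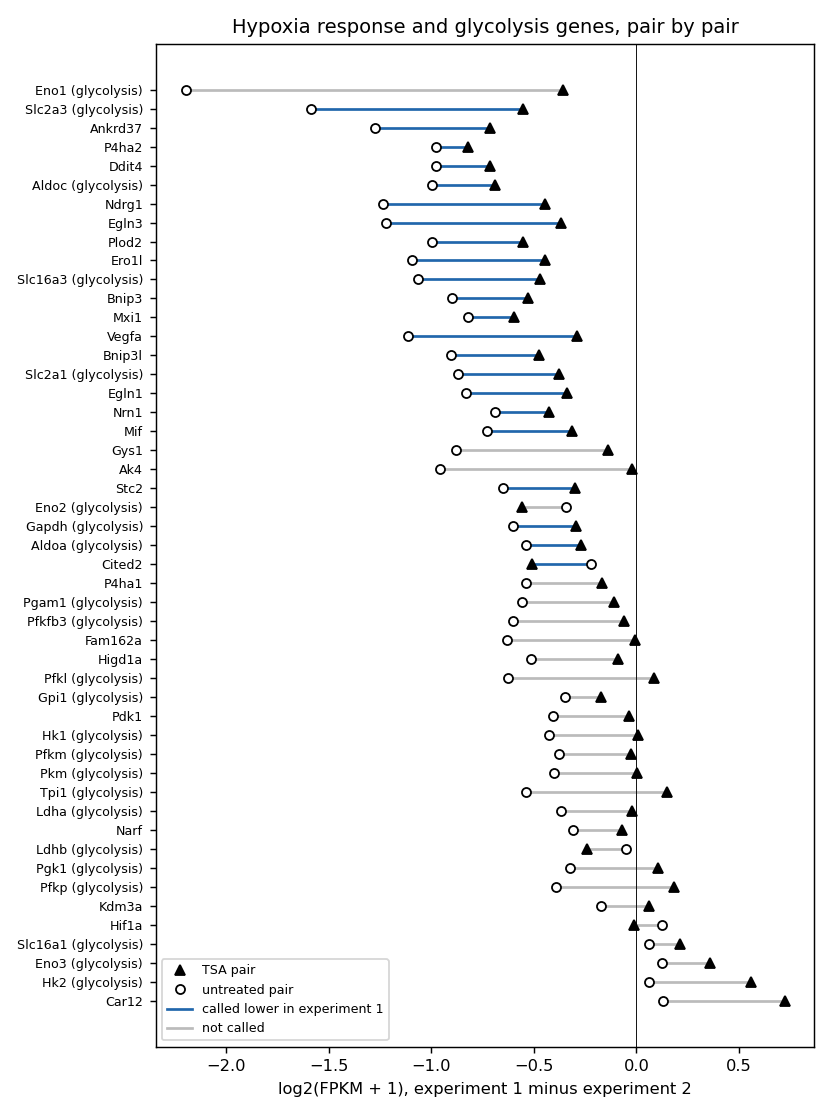
Difference between experiments in log2(FPKM + 1), experiment 1 minus experiment 2, of the tested hypoxia response and glycolysis genes, ordered by their mean difference. Triangles are the TSA pair, circles the untreated pair, and the joining line is blue where the gene was called lower. In 45 of 49 genes the circle lies left of its triangle, and Ankrd37, P4ha2, Ddit4 and Aldoc are left of 0 in both pairs.

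The promoters of the hypoxia genes were read from RefSeq (GRCm38.p6) as the 250 bases before and 50 after the transcription start, since these genes moved together. The core ACGTG, on either strand, was in the promoter of 16 of the 22 tested hypoxia genes with an entry (72.7%), among them 11 of the 12 called lower. It was in 14 of 22 glycolysis genes (63.6%) and in 31.4% of the 6231 tested genes with an entry. Over all genes called lower the share was 32.2%, and over all 32851 listed promoters it was 19.6%. In the counts by gene, a match at any listed start was enough. The list was made of hypoxia response genes and Hif1a binds this core, so a high share can follow from the choice of genes. The core also lies within the E-box CACGTG, which other factors bind, so a match is a description of the letters. The promoters of Aldoc, Ankrd37 and P4ha2 are printed because these genes were lower in both pairs, and capitals mark the core on either strand. Aldoc is on chr11:78322823-78323122 (plus strand), Ankrd37 on chr8:45999801-46000100 (minus strand) and P4ha2 on chr11:54100674-54100973 (plus strand). The second listed start of Aldoc held no match.
Aldoc: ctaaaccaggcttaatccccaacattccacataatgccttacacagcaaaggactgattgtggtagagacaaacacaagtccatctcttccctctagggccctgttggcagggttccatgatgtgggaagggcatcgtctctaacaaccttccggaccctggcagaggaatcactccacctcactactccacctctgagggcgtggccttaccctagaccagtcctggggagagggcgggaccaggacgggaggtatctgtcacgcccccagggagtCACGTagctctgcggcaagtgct
Ankrd37: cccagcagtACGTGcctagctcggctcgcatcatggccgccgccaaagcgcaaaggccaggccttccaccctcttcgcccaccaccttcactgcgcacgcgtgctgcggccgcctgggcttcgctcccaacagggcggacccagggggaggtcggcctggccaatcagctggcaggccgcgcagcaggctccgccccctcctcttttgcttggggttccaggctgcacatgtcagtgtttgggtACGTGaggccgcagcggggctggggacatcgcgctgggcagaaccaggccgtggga
P4ha2: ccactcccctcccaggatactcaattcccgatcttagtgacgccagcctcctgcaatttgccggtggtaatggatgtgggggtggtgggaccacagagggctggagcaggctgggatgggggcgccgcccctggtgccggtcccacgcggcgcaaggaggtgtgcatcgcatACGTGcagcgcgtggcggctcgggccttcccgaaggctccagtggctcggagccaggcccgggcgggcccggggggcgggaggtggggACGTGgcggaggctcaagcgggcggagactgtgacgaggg

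Metallothionein transcripts were lower in experiment 1, each in both pairs. Mt1 had 341 (TSA) and 160.0 (untreated) FPKM in experiment 1, against 639 (TSA) and 490.4 (untreated) in experiment 2. Its experiments did not overlap, and the log2 difference was -1.26 (SE 0.16, adjusted p = 0.0154). Mt2 had 307 (TSA) and 50.1 (untreated) FPKM in experiment 1, against 612 (TSA) and 189 (untreated) in experiment 2 (log2 difference -1.44, SE 0.19, adjusted p = 0.0170). Mt3, better known from brain, had 98.7 (TSA) and 5.60 (untreated) FPKM in experiment 1, against 162 (TSA) and 8.68 (untreated) in experiment 2 (log2 difference -0.63, adjusted p = 0.0169). For Mt2 and Mt3 the TSA culture of experiment 1 was above the untreated culture of experiment 2, so the experiments overlapped. The transcript of the zinc sensor Mtf1 was not called, at 5.57 (TSA) and 4.18 (untreated) FPKM in experiment 1, against 5.17 (TSA) and 3.58 (untreated) in experiment 2. The zinc importer gene Slc39a10 was not called either (log2 difference 0.26). The metallothioneins are close relatives in sequence, and how reads shared between them were assigned is not given in the sources used here.

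The metal response core that Mtf1 binds was searched as TGCACNC or TGCGCNC on both strands in the same RefSeq windows. It was in the promoters of 3 of the 5 tested metallothionein and zinc genes (60.0%), which were the 3 called lower. The share was as high among hypoxia and glycolysis genes (14 of 22, 63.6%, in each list), and it was 41.1% over the 6231 tested genes with an entry. Mt1 held 3 matches and Mt2 held 4. The promoters are printed because these genes gave some of the largest differences, with the matches in capitals. Mt1 is on chr8:94178839-94179138 and Mt2 on chr8:94172368-94172667, both on the plus strand of GRCm38.p6.
Mt1: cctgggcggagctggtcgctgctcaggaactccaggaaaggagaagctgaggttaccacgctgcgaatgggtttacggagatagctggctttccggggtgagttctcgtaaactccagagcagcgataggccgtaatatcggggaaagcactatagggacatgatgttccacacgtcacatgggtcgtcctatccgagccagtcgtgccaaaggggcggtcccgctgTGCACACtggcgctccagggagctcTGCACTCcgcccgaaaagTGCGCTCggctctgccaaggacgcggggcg
Mt2: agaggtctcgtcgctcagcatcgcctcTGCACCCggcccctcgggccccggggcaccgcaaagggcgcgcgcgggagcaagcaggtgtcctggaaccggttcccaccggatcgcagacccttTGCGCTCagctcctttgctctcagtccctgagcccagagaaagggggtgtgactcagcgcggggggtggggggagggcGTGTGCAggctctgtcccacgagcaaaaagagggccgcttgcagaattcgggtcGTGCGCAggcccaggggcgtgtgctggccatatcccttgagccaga

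Among granule genes, 4 of 12 tested were called lower in experiment 1 and 0 higher, against 9.17% and 8.44% of all genes, with a median log2 difference of -0.17. The median was -0.33 in the TSA pair and -0.03 in the untreated pair. The lower filter gave 1 higher and 3 lower calls of 16. With the length trend removed 2 were lower, as the calls of Gzmb and Cst7 were then lost. Gzma was the largest. Gzmb, granzyme B, had 1246 (TSA) and 1727 (untreated) FPKM in experiment 1, against 1779 (TSA) and 2059 (untreated) in experiment 2, with no overlap but a smaller log2 difference (-0.38, adjusted p = 0.0385), and its call was also lost with the lower filter, quantile normalization and an untrended prior. Srgn, the proteoglycan that packs granule proteases, had 322 (TSA) and 456 (untreated) FPKM in experiment 1, against 510.2 (TSA) and 709.5 (untreated) in experiment 2 (log2 difference -0.65, adjusted p = 0.0146). The inhibitor gene Cst7 differed by -0.39 (adjusted p = 0.0254). Prf1, the pore-forming partner of granzymes, was too low to be tested, at 2.53 (TSA) and 0.66 (untreated) FPKM in experiment 1, against 4.06 (TSA) and 0.94 (untreated) in experiment 2. Eomes and Fasl of this list, also too low to be tested, went the other way in both pairs. Eomes had 9.14 (TSA) and 3.17 (untreated) FPKM in experiment 1, against 3.80 (TSA) and 0.75 (untreated) in experiment 2. Fasl had 3.13 (TSA) and 1.84 (untreated) FPKM in experiment 1, against 2.39 (TSA) and 0.81 (untreated) in experiment 2. Nkg7 and the cytotoxic regulator Tbx21 were not called, with log2 differences of 0.18 and 0.03. Markers of CD8 T and NK cells summed to 39.6 (TSA) and 10.1 (untreated) FPKM in experiment 1, against 42.4 (TSA) and 11.8 (untreated) in experiment 2. Of those 18 markers 2 were tested and 0 called, Ncr1 was listed at 0 in all 4 libraries, and Cd8a had 0.32 (TSA) and 0.32 (untreated) FPKM in experiment 1, against 0.82 (TSA) and 0.58 (untreated) in experiment 2.

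Th2 genes did not move as a block. Of 18 tested, 1 was called higher and 4 lower in experiment 1, against 8.44% and 9.17% of all genes. The median log2 difference of the list was -0.08. Il13, a signature Th2 cytokine, had 8.75 (TSA) and 22.5 (untreated) FPKM in experiment 1, against 25.3 (TSA) and 32.1 (untreated) in experiment 2. The experiments did not overlap, and the log2 difference was -0.96 (SE 0.20, adjusted p = 0.0307), a call lost with a robust prior (adjusted p = 0.0506). Maf, a factor that drives interleukin 4 and interleukin 10, had 44.0 (TSA) and 29.0 (untreated) FPKM in experiment 1, against 95.8 (TSA) and 56.5 (untreated) in experiment 2 (log2 difference -1.02, SE 0.082, adjusted p = 0.0140). Il10 had 316 (TSA) and 114 (untreated) FPKM in experiment 1, against 486 (TSA) and 159 (untreated) in experiment 2 (log2 difference -0.55). Batf, an AP-1 factor of activated T cells, was lower by -0.63 on this scale. The chemokine receptor gene Ccr4 was higher, at 28.3 (TSA) and 95.2 (untreated) FPKM in experiment 1, against 19.5 (TSA) and 75.8 (untreated) in experiment 2 (log2 difference 0.42, adjusted p = 0.0292).

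The Th2 regulator Gata3 and the cytokine Il4 were not called, with log2 differences of -0.15 (SE 0.093) and -0.16 (SE 0.10). Il4 had 67.3 (TSA) and 75.4 (untreated) FPKM in experiment 1, against 66.3 (TSA) and 96.0 (untreated) in experiment 2. Il5 had 3.92 (TSA) and 23.1 (untreated) FPKM in experiment 1, against 2.08 (TSA) and 22.8 (untreated) in experiment 2, and was not called (adjusted p = 0.17). Among 22 T cell genes, Cd3e (log2 difference 0.34) and the adaptor Trat1 (0.64) were called higher and the kinase gene Zap70 (-0.35) lower, with a list median of 0.07. The calls of Cd3e and Zap70 were lost with an untrended prior, and that of Zap70 also with the length or GC trend removed. Th1 genes split, with 3 higher, among them the interleukin 12 receptor gene Il12rb2 (0.47), and 3 lower, among them the homeobox gene Hlx (-0.97), of 15 tested. Over all genes 8.44% were called higher and 9.17% lower.

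The receptor genes Tnfrsf4, Tnfrsf18, Tnfrsf9, Ctla4 and Lag3 were lower in experiment 1. Tnfrsf4 (OX40) had 189 (TSA) and 249 (untreated) FPKM in experiment 1, against 266 (TSA) and 426 (untreated) in experiment 2 (log2 difference -0.63, adjusted p = 0.0183). Tnfrsf18 (GITR) had 243 (TSA) and 295 (untreated) FPKM in experiment 1, against 362 (TSA) and 505 (untreated) in experiment 2 (log2 difference -0.67). Both were separate between experiments. Ctla4 had 184 (TSA) and 62.9 (untreated) FPKM in experiment 1, against 272 (TSA) and 123 (untreated) in experiment 2 (log2 difference -0.76), and Tnfrsf9 and Lag3 differed by -0.83 and -0.71. Over all genes 8.44% were called higher and 9.17% lower. These receptor genes sit on the regulatory T cell list (0 higher and 4 lower of 10 tested, median -0.23) or the activation receptor list (2 higher and 5 lower of 16, median -0.09). The higher ones were Cd44 (log2 difference 0.47) and Tfrc (0.48), and the higher count was 4 with quantile normalization or median-ratio scaling and 1 with the length trend removed. Tnfrsf8 (-0.06) and Cd27 (-0.70, adjusted p = 0.0727), of the same receptor family as Tnfrsf4, were not called. Foxp3, the defining regulatory T cell factor, was too low to be tested, at 0.62 (TSA) and 0.56 (untreated) FPKM in experiment 1, against 1.16 (TSA) and 1.12 (untreated) in experiment 2.

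Immediate early genes respond within minutes to stimulation. Of 15 tested members 9 were called lower and 0 higher, against 9.17% and 8.44% of all genes, with a median log2 difference of -0.44. With the transcript length trend described further on removed, 5 of them were called lower. Junb had 79.4 (TSA) and 96.0 (untreated) FPKM in experiment 1, against 131 (TSA) and 193 (untreated) in experiment 2, with no overlap (log2 difference -0.86, SE 0.092, adjusted p = 0.0145). Fos had 15.6 (TSA) and 6.96 (untreated) FPKM in experiment 1, against 35.7 (TSA) and 10.8 (untreated) in experiment 2 (log2 difference -0.86, SE 0.14). Ier3 and the phosphatase gene Dusp2 differed by -0.74 and -0.59. The call of Dusp2 was lost with pseudocount 5, an untrended prior, and the length or GC trend removed.

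Inhibitors of the cell cycle and p53 targets were called lower for 7 of 19 and higher for 1, against 9.17% and 8.44% of all genes, with a median of -0.23. That median was -0.32 in the TSA pair but 0.06 in the untreated pair. In both pairs 8 of the 19 were lower, as were 2846 of all 8037 genes. With the length trend removed 4 were lower and 0 higher. Cdkn1b, which encodes the cell cycle inhibitor p27, had 11.5 (TSA) and 18.3 (untreated) FPKM in experiment 1, against 20.0 (TSA) and 38.7 (untreated) in experiment 2. Each library of experiment 1 was below both of experiment 2 (log2 difference -0.90, SE 0.099, adjusted p = 0.0145). Klf2, a quiescence factor of resting T cells, had 5.73 (TSA) and 5.68 (untreated) FPKM in experiment 1, against 15.7 (TSA) and 11.8 (untreated) in experiment 2 (log2 difference -1.13, SE 0.12). The antiproliferative gene Btg2 and the kinase inhibitor gene Pik3ip1 were lower by -0.61 and -0.48. The quiescence list as a whole held 2 higher and 6 lower of 19 tested, with 1 higher under pseudocount 5, the lower filter, quantile normalization, either other prior or the length trend removed.

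Genes of ribosome biogenesis were higher in experiment 1. Of 24 tested ribosome biogenesis genes, 13 were called higher and 0 lower, against 8.44% and 9.17% of all genes. Their median log2 difference was 0.40. Of the 24, 13 had both libraries of experiment 1 above both of experiment 2, as 16.1% of all genes did. Dkc1, which modifies ribosomal RNA, had 27.2 (TSA) and 50.8 (untreated) FPKM in experiment 1, against 13.6 (TSA) and 32.3 (untreated) in experiment 2 (log2 difference 0.79, SE 0.099, adjusted p = 0.0156). Ddx21, a nucleolar helicase, had 71.5 (TSA) and 77.4 (untreated) FPKM in experiment 1, against 40.9 (TSA) and 48.1 (untreated) in experiment 2 (log2 difference 0.73). Nop58, a core protein of small nucleolar particles, had 112 (TSA) and 141 (untreated) FPKM in experiment 1, against 69.6 (TSA) and 89.6 (untreated) in experiment 2 (log2 difference 0.66). Dkc1 overlapped between experiments, while Ddx21 and Nop58 did not. Nucleolin (Ncl) and nucleostemin (Gnl3) were higher by 0.63 and 0.67, and nucleophosmin (Npm1) was not called (log2 difference 0.28, adjusted p = 0.0648).

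Of 34 cell cycle genes 6 were higher and 0 lower, against 8.44% and 9.17% of all genes, with a median log2 difference of 0.20. With median-ratio scaling 11 were higher, and 3 with an untrended prior or with the length trend removed. The called genes were Mki67, Cenpe, Kif11, Top2a, Rrm1 and Rrm2. Mki67, a marker of dividing cells, had 108 (TSA) and 142 (untreated) FPKM in experiment 1, against 67.4 (TSA) and 107 (untreated) in experiment 2 (log2 difference 0.54, adjusted p = 0.0224), a call lost with the length trend removed (adjusted p = 0.0824). The mitotic kinase genes Cdk1 and Plk1 and the replication clamp Pcna were not called, with log2 differences of 0.11, 0.25 and 0.01. Of 13 heat shock genes, 4 were higher and 1 lower, against 8.44% and 9.17% of all genes, but 2 and 0 with an untrended prior or the length trend removed. The mitochondrial chaperonin gene Hspd1 had 132 (TSA) and 146 (untreated) FPKM in experiment 1, against 85.9 (TSA) and 111 (untreated) in experiment 2 (log2 difference 0.51). Hmox1, the haem oxygenase induced by oxidative stress, was the lower one (-0.52), a call also lost with pseudocount 5 and the lower filter. Proteasome subunits were higher for 8 of 34 and lower for 0, led by Psmd1 (log2 difference 0.47, adjusted p = 0.0202), with a median of 0.11, but for 3 with an untrended prior and 4 with the GC trend removed. Tfrc, the transferrin receptor that brings iron into dividing cells, had 99.0 (TSA) and 107 (untreated) FPKM in experiment 1, against 71.0 (TSA) and 76.6 (untreated) in experiment 2 (log2 difference 0.48, adjusted p = 0.0201).

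**Figure D4:**
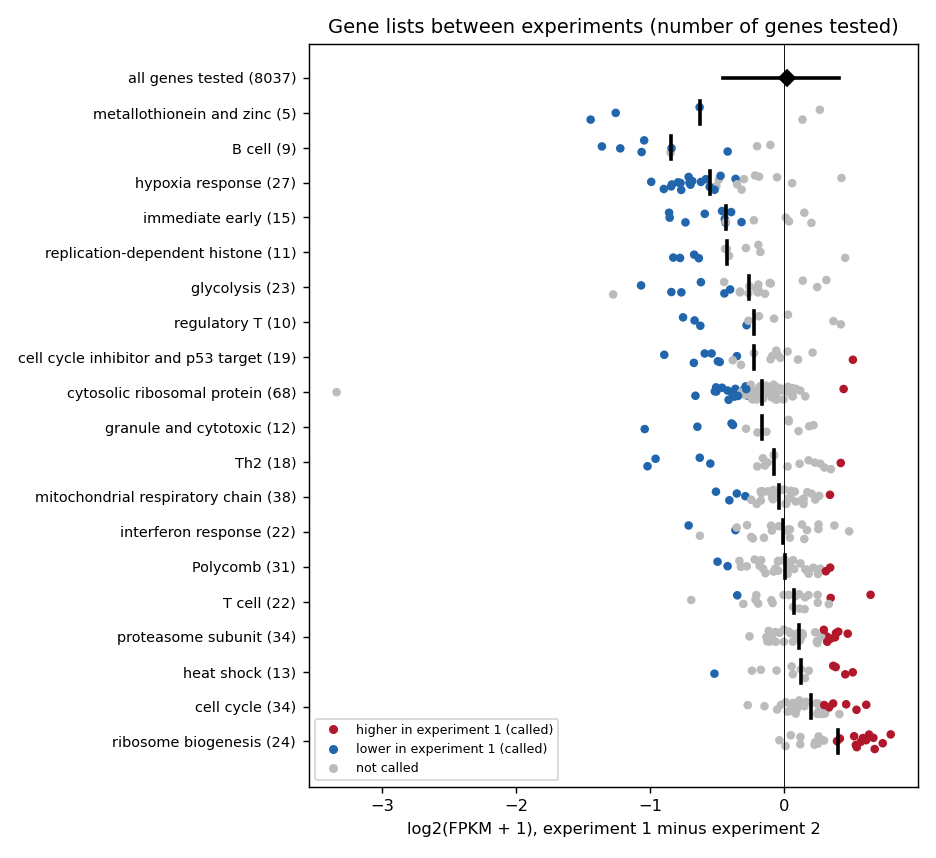
Difference between experiments in log2(FPKM + 1), experiment 1 minus experiment 2, for the tested members of 19 gene lists. Points are genes, red where called higher and blue where called lower in experiment 1, black bars are list medians, and the top line gives the median and the central 90% of all 8037 genes. Metallothionein, B cell, hypoxia and immediate early genes lie to the left, and ribosome biogenesis genes to the right with a median of 0.40.

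Genes of antigen presentation and other members of the B cell list were lower in experiment 1. On the B cell list 9 of 22 genes were tested, and 6 were called lower and 0 higher, against 9.17% and 8.44% of all genes. The median log2 difference was -0.85, and all 9 were lower in both pairs, as were 2846 of all 8037 genes. Cd74, the chaperone of class II molecules, had 49.2 (TSA) and 10.5 (untreated) FPKM in experiment 1, against 150.1 (TSA) and 24.2 (untreated) in experiment 2 (log2 difference -1.36, SE 0.12, adjusted p = 0.0140). H2-Ab1, a class II chain, had 39.6 (TSA) and 35.1 (untreated) FPKM in experiment 1, against 75.6 (TSA) and 80.5 (untreated) in experiment 2, with no overlap (log2 difference -1.05). H2-Aa and the lymphoid coactivator gene Pou2af1 were lower by -1.22 and -1.06, and the call of Pou2af1 was lost with pseudocount 5 and quantile normalization. Of 8 tested plasma cell genes 2 were lower, Mzb1 and Igj, which serve antibody assembly, and 0 higher, with a median of -0.14. Irf4 and Txndc5 of that list were not called, at 0.23 each. Mzb1 had 5.15 (TSA) and 4.68 (untreated) FPKM in experiment 1, against 24.4 (TSA) and 12.2 (untreated) in experiment 2 (log2 difference -1.63, SE 0.19). Igj had 1.38 (TSA) and 4.77 (untreated) FPKM in experiment 1, against 6.95 (TSA) and 14.8 (untreated) in experiment 2 (log2 difference -1.60). It reached 5 FPKM only in experiment 2, so it was tested only through the libraries where it was high and had to differ.

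Defining B cell markers were low. Cd79a, part of the B cell receptor, had 3.34 (TSA) and 0.95 (untreated) FPKM in experiment 1, against 11.2 (TSA) and 2.24 (untreated) in experiment 2. Pax5, the factor that fixes B cell identity, had 0.87 FPKM in the TSA culture of experiment 1, against 0.88 in that of experiment 2, and was listed at 0 in both untreated libraries. The 22 B cell genes summed to 195 (TSA) and 69.5 (untreated) FPKM in experiment 1, against 454 (TSA) and 141 (untreated) in experiment 2. Myeloid markers summed to 7.43 (TSA) and 9.58 (untreated) FPKM in experiment 1, against 9.67 (TSA) and 9.57 (untreated) in experiment 2. The part of carried-over B cells in the other differences was not tested.

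By size alone, 1 gene was at least 2-fold higher in both pairs (0.0124%) and 9 were 2-fold lower (0.112%). The higher one was Rest, a repressor of neuronal genes, with 10.0 (TSA) and 9.47 (untreated) FPKM in experiment 1, against 4.36 (TSA) and 3.76 (untreated) in experiment 2 (log2 difference 1.09). Rest and the factor Elk4 reached 5 FPKM only in experiment 1, so they were tested only through the libraries where they were high and are given as a description. The skeletal actin gene Acta1 was higher by 1.01. The other leading higher genes were Supt16, a histone chaperone subunit, Ppp1r12a, a myosin phosphatase subunit, Gatad2b, a subunit of a chromatin remodelling complex with deacetylases, Foxn3, Eif5b, a translation initiation factor, Elk4 and Ddx21, with log2 differences from 0.73 for Ddx21 to 0.83 for Supt16. Both libraries of experiment 1 were above both of experiment 2 for each of these genes, as the rule that named them required.

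The 9 genes that were 2-fold lower in both pairs were Cd74, Mzb1, Igj, Itga7, Rpl29, Ndufs5, Ecm1, Selm and Ypel3, the last 3 named after their values were seen. The untreated value of Ndufs5 in experiment 1 was off, as described further on. Itga7, an integrin chain, had 1.96 (TSA) and 4.19 (untreated) FPKM in experiment 1, against 5.70 (TSA) and 21.8 (untreated) in experiment 2 (log2 difference -1.66). Ecm1, a secreted matrix protein known from Th2 cells, was abundant, with 2262 (TSA) and 605 (untreated) FPKM in experiment 1, against 4797 (TSA) and 1341 (untreated) in experiment 2 (log2 difference -1.12, SE 0.076, adjusted p = 0.0140). Its 2 pairs gave close values of -1.08 (TSA) and -1.15 (untreated). Gem, a small GTPase, and Mgarp, a mitochondrial protein induced by hypoxia, were lower by -1.12 and -1.10. Itga7 and Gem, like Igj, reached 5 FPKM only in experiment 2 and are given as a description. Rpl29 had 20.5 (TSA) and 13.4 (untreated) FPKM in experiment 1, against 43.0 (TSA) and 31.8 (untreated) in experiment 2, and its many processed copies make these levels uncertain.

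A few values were off in a single library. Ndufs5, a subunit of respiratory complex I, was listed at 0.00 in the untreated library of experiment 1 and had 31.4 FPKM in its TSA library, against 87.6 (TSA) and 33.6 (untreated) FPKM in experiment 2. Its fitted difference is not given for that reason, although the gene is counted among the 737 lower calls and the 9 genes 2-fold lower in both pairs. Rps27 had 1235 (TSA) and 8.00 (untreated) FPKM in experiment 1, against 1245 (TSA) and 914 (untreated) in experiment 2. The chemokine gene Ccl5 had 8.80 (TSA) and 9.89 (untreated) FPKM in experiment 1, against 41.1 (TSA) and 10.1 (untreated) in experiment 2, so that the TSA library of experiment 2 alone was high. Neither Rps27 nor Ccl5 was called.

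Short transcripts were lower and long ones higher in experiment 1. Genes in the shortest of 5 groups of equal size, up to 1566 bases, had a median log2 difference of -0.13, with 38 called higher and 340 lower. In the longest group, from 4455 bases, the median was 0.15, with 282 higher and 30 lower. Over 7970 genes with a known length (99.2%) Spearman's rho between length and difference was 0.347 in the TSA pair and 0.379 in the untreated pair. It was 0.0233 to 0.0426 in the pairs of ES, B and CD4 T libraries, which were close to duplicates. The rho with GC content was -0.303 in the TSA pair and -0.48 in the untreated pair. Library depth also differed between the experiments, and whether RNA quality or library preparation did is not recorded, so its part was not tested.

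**Figure D5:**
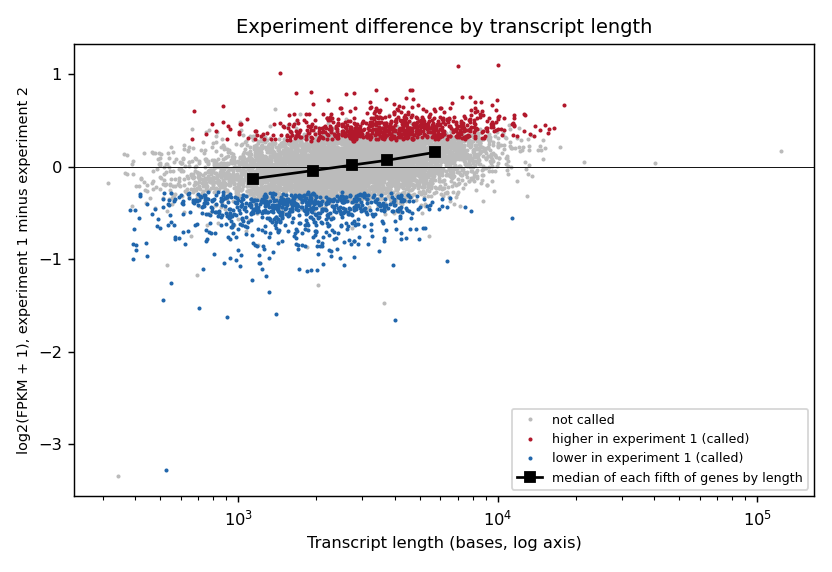
Difference between experiments in log2(FPKM + 1), experiment 1 minus experiment 2, against transcript length in bases on a log axis, for 7970 genes. Points are genes, red where called higher and blue where called lower in experiment 1, and squares are the medians of 5 groups of equal size. The medians run from -0.13 in the shortest group to 0.15 in the longest.

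With each library's trend on transcript length removed, an alternative chosen after seeing the data, 337 genes were called higher and 499 lower, and 729 of these were among the 1415 called before (51.5% of those). The hypoxia list then held 14 lower calls with a median of -0.57, and ribosome biogenesis 11 higher calls with a median of 0.31. The metallothionein list held 3 lower calls (median -0.42). Cytosolic ribosomal protein genes, with a median length of 832 bases, had 15 lower and 1 higher call of 68, against 9.17% and 8.44% of all genes. Their median log2 difference of -0.17 came to -0.01, with 4 lower and 2 higher calls, after the length trend was removed. It came to 0.00 with 6 lower calls after quantile normalization. Median-ratio scaling gave 28 lower calls and removal of the GC trend 24. Among the called members of this list Rplp1 was the most affected, with 3211 (TSA) and 2909 (untreated) FPKM in experiment 1. It had 4697 (TSA) and 4993 (untreated) FPKM in experiment 2 (log2 difference -0.66). The list does not hold Rpl29, a ribosomal protein gene with a larger called difference (-1.11). Replication-dependent histone genes, with 4 lower of 11 tested and a median of -0.43, came to 2 lower and -0.22. Among the 4, Hist1h2ad and Hist1h2ag reached 5 FPKM only in experiment 2, where they were high, the lower filter gave 10 lower calls of 28, and the family has near-identical copies. Respiratory chain genes had 1 higher and 4 lower of 38, with a median of -0.04 that came to 0.10.

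Several other lists held at most 3 calls in a direction, and in each of them a count moved by over 1.5 times under at least 1 alternative. Over all genes 8.44% were called higher and 9.17% lower, so these small counts are not read as a result about any list. Interferon response genes had 0 higher and 2 lower of 22 (median -0.01), cholesterol synthesis genes 0 and 1 of 22 (0.05), amino acid response genes 3 and 3 of 22 (0.09) and unfolded protein response genes 3 and 2 of 20 (0.02). Polycomb genes, whose products silence chromatin, had 2 higher and 2 lower of 31 (0.00). Ezh2, the Polycomb methyltransferase, had 166 (TSA) and 135 (untreated) FPKM in experiment 1, against 133 (TSA) and 109.8 (untreated) in experiment 2 (log2 difference 0.31, adjusted p = 0.0387), a call lost with an untrended prior and with the length or GC trend removed. The Trithorax genes had 1 higher and 1 lower of 14 (median 0.20, and 0.06 with the length trend removed), with the methyltransferase gene Kmt2a at 0.42 and its partner Men1 at -0.31. The call of Kmt2a was lost with the length trend removed, and that of Men1 with the GC trend removed, an untrended prior, pseudocount 5 and the lower filter. Among histone deacetylases 1 of 13 was higher, Hdac4 (log2 difference 0.50), and 3 were lower, Sirt2, Sirt6 and Sirt7, while the list median was -0.04. Hdac4 reached 5 FPKM only in experiment 1 and lost its call with the length trend removed. The call of Sirt7 was lost with an untrended prior and with the length or GC trend removed.

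The spread between experiments bears on the test of TSA in the same libraries. Without the experiment in the model, 1026 genes (12.8%) were higher and 927 (11.5%) lower in TSA-treated than in untreated cultures. With the experiment number as a replicate block, 2083 (25.9%) were higher and 2528 (31.5%) lower. Gzma illustrates the range, since its TSA difference of 0.58 was smaller than its experiment difference of -1.04, whereas Tpi1 differed by -1.51 with TSA and -0.20 between experiments.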

How the data were processed

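RNA-seq libraries of mouse Th2 cultures were used, and samples were grouped by treatment and experiment number as their titles give them. The deposited files hold FPKM per transcript, already divided by length and library total by the authors. The submitters' processing notes name the mm10 genome build, the aligners TopHat 1.3.2 and Bowtie 0.12.8, and Cufflinks 2.0.2. Settings, strand use and read totals are not given there. Depth was therefore estimated from the steps between low FPKM values of transcripts of 1 to 3 kilobases, which is approximate.

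Each file had 21035 entries, which gave 19025 genes. The 315 entries without a symbol and 30 with a date in its place were named from RefSeq accessions, 41 with success, and 304 kept their accession. A gene's value was its highest entry, and the entries of 1449 symbols with several were identical in the Th2 files. Differences on the log2(FPKM + 1) scale were tested by limma (version 3.58.1, under R 4.3.3) with a trended prior, treatment as a block, two-sided, and Benjamini-Hochberg adjustment over 8037 genes. The fit has 1 residual degree of freedom and an estimated prior of 5.45, an estimate that itself varies at this size, as found in a test on simulated data. With 2 libraries against 2 an exact permutation test could not pass 0.05, so none was run. ES, B and CD4 T libraries stayed out of the fit.

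Genes were named by rule: 4 marker genes, the 10 largest called differences in each direction without overlap, up to 4 members of each gene list and 6 further genes. Small RNAs, numbered models, Riken clones and pseudogenes were left out of the largest differences, and of the 144 genes so named a part is described, and 4 are not reported here. Values of other list members are given where they bear on a list. The members, lists and rules were chosen with earlier results of these data known. Experiment numbers are part of the titles of both treatments, and the pair differences correlated at 0.65 over genes, so the numbers were taken to pair the samples. Promoters came from RefSeq tables of GRCm38.p6, without coordinates being mixed with those of the files. Transcript length and GC content came from GENCODE transcript sequences matched through RefSeq accessions, as the median over matches. Alternatives covered the pseudocount (0.1 and 5), the filter (1 FPKM, or none), the choice of entry, scaling, the prior, the block, each library left out and, chosen after seeing the data, removal of trends on transcript length and GC content.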

Additional observations from a re-analysis of the deposited data

Results flagged for a closer look

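In 4 of the named genes the experiment difference had opposite signs in the 2 treatment pairs, which was not tested because each pair is 1 library against 1. For Il4 and Ifi203 the value in the TSA pair was very small (0.02 and -0.03), so its sign carries little. Tpi1 differed by 0.15 in the TSA pair and -0.54 in the untreated pair (untreated minus TSA -0.69). Il4 differed by 0.02 in the TSA pair and -0.34 in the untreated pair (untreated minus TSA -0.37). The interferon-inducible gene Ifi203 differed by -0.03 in the TSA pair and 0.995 in the untreated pair (untreated minus TSA 1.03). Fkbp11, a prolyl isomerase of the secretory pathway, differed by 0.18 in the TSA pair and -0.72 in the untreated pair (untreated minus TSA -0.90). None of these 4 was called between experiments.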

How the results depend on the processing

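Of the 140 named genes given here, 108 were called between experiments. Counts of calls stayed within 1.5 times of 678 higher and 737 lower with either pseudocount, the lower filter, sums or means of entries, quantile normalization, and a prior without trend or a robust one. They came to 0 higher and 0 lower without a filter and without the treatment block. Leaving out each library in turn, which also removes the block so that the TSA difference enters, gave 0 to 0 higher and 0 to 1 lower. Median-ratio scaling gave 1312 lower, and removing the length trend gave 337 higher. With the GC trend removed, 909 of the called genes were called again. Genes 2-fold higher in both pairs numbered 2 with pseudocount 0.1, 0 with pseudocount 5 and 2 with the lower filter, and 2-fold lower ones 15 with pseudocount 0.1 and 2 with pseudocount 5. In a single pair, with a library left out, there were 3 to 5 higher and 44 to 52 lower. The replicate block moved the TSA test to 2083 higher and 2528 lower genes. Il4 changed sign to 0.036 with the length trend removed and Vim to 0.064 with quantile normalization. With a library left out, 41 of the named genes changed sign, with these lowest and highest log2 differences: Tpi1 (-1.12 to 0.73), Klrk1 (-1.55 to 2.22), Cd8b1 (-0.68 to 0.18), Trat1 (-0.68 to 1.97), Zap70 (-0.75 to 0.045), Il10 (-1.35 to 0.25), Lta (-1.88 to 0.77), Ly6c1 (-1.41 to 0.46), Il12rb2 (-0.67 to 1.61), Slamf6 (-0.15 to 0.75), Sh2d1a (-0.55 to 0.12), Ctla4 (-1.52 to 0.0099), Nrp1 (-1.16 to 2.00), Tnfrsf9 (-1.75 to 0.10), Lag3 (-1.90 to 0.48), Dusp2 (-1.35 to 0.16), Ccl4 (-2.19 to 0.69), Ccl22 (-1.82 to 0.55), Isg15 (-1.51 to 0.25), Ifi203 (-0.65 to 1.61), Bbc3 (-1.46 to 0.10), Perp (-1.69 to 0.50), Cyp51 (-0.27 to 1.004), Stc2 (-1.60 to 0.65), Psat1 (-0.16 to 0.94), Rps27 (-6.89 to 0.21), H2-Aa (-3.01 to 0.56), Pou2af1 (-2.14 to 0.0099), Fkbp11 (-0.87 to 0.33), Irf4 (-0.29 to 0.74), Emr1 (-1.01 to 1.29), Vim (-0.34 to 0.20), Nnt (-0.23 to 0.49), Mt3 (-2.67 to 1.41), Slc39a10 (-0.48 to 1.01), Yaf2 (-0.85 to 0.0042), Ash2l (-0.16 to 0.85), Hcfc1 (-0.15 to 0.76), Gata3 (-0.64 to 0.34), Il4 (-0.42 to 0.10), Cd4 (-0.11 to 0.33). Ifi203 and Nnt, which have no transcript length, got no value with the length or GC trend removed. Calls of named genes were also lost with an untrended prior (16 genes, among them Gzmb, Cd3e and Ezh2), a robust prior (4, among them Slc2a3 and Il13), quantile normalization (9), pseudocount 5 (11), the lower filter (8), the length trend removed (23, among them Mki67, Kmt2a and Hdac4) and the GC trend removed (15, among them Men1 and Sirt7). Depth was lower in experiment 1, which limits low genes most.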
